A study of Macaca fascicularis with 16 samples.

Results

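The prolactin receptor (PRLR) and 5 related receptors of the class I cytokine family, the growth hormone receptor (GHR), the leptin receptor (LEPR), the leukaemia inhibitory factor receptor (LIFR), the shared signal transducer gp130 (IL6ST) and the interleukin-6 receptor (IL6R), were followed in macaque endometrium. Every probe set whose only platform gene symbol was one of these 6 was taken, which gave 14 of the 52865 probe sets of the array: 5 for PRLR, 4 for LEPR, 2 for IL6R and 1 each for GHR, LIFR and IL6ST. PRLR was picked because its signal was low in the tamoxifen arm against control, so the tamoxifen and control arrays are a description for it, and the other 5 genes joined it as relatives.

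The tissue came from 16 postmenopausal female cynomolgus macaques (Macaca fascicularis) randomized to 4 arms of 4 animals, with 1 array per animal after 4 months of treatment. The estradiol arm received 0.25 mg of estradiol per 1800 kcal of diet. The tamoxifen arm received 20 mg per 1800 kcal of this selective oestrogen receptor modulator. The combination arm received both agents at those doses, and the control arm received placebo. The ages of the animals and the proportions of endometrial layers in each piece of tissue are not given in the sources used here, and the array was designed for the rhesus macaque, a relative of the animals studied.

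Class I cytokine receptors have no kinase of their own. Binding of the hormone or cytokine brings receptor chains together, Janus kinases held on the chains become active, and STAT transcription factors are phosphorylated and enter the nucleus, where they switch on genes that include feedback inhibitors of the SOCS family. PRLR, GHR and LEPR form homodimers that work mainly through JAK2 with STAT5 or STAT3. LIFR and IL6R deliver their ligands to gp130, which signals through STAT3. In the endometrium, prolactin is a product of decidualized stroma, PRLR is known from glands and stroma, and the leukaemia inhibitory factor pathway is known for its part in implantation.

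Signals are the authors' MAS5 values on a linear scale, and differences are of means of log2(signal + 4.80), so they understate the change of dim probe sets. Each difference below is the first-named arm minus the second, fitted with limma over all 16 arrays, with p-values adjusted by the Benjamini-Hochberg method over 31659 probe sets and a threshold of 0.05. Of the 14 receptor probe sets, 13 passed the filter that left out the dimmest 40% of probe sets. The LEPR probe set MmuSTS.862.1.S1_at had a mean of 5.09 on the log2 scale and fell below the limit of 5.36, while the LEPR probe set Mmu.15359.1.S1_s_at was just inside it at 5.47.

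The arms also differed in markers of cell types. Of 14 listed epithelium markers 11 were measured, and their summed signal was 6808 to 11917 in the estradiol arm, 6801 to 12853 in the tamoxifen arm and 7528 to 9595 in the combination arm, all above the 5162 to 5586 of the control arm. Of 9 tested, 5 were called higher with estradiol, 4 with tamoxifen and 5 with both agents. Over all probe sets 25.5%, 13.3% and 15.8% were called in either direction in those comparisons. The summed signal of stromal fibroblast markers, measured for 10 of 12, was also higher. It was 36307 to 42651 with estradiol, 26168 to 40414 with tamoxifen and 29292 to 37069 with both agents, against 22563 to 24968 in controls. Of 10 tested, 7 were called higher with estradiol, 5 with tamoxifen and 5 with both agents. The list was not uniform: DCN, LUM and FBLN1 were lower in mean in each treated arm. FBLN1 was called lower with both agents (change −0.57). Some other lists were lower in at least 1 treated arm, as PRLR and LEPR were. Endothelium markers, measured for 11 of 12, summed to 3636 to 6389 with estradiol, 4441 to 7372 with tamoxifen and 4989 to 6784 with both agents, against 6977 to 8723 in controls. Of 11 tested, 7 were called lower with estradiol, 1 with tamoxifen and 1 with both agents, beside the same shares over all probe sets. T and NK cell markers, measured for 7 of 12, summed to 4756 to 6107 with estradiol, 4765 to 7090 with tamoxifen and 4097 to 5572 with both agents, against 6317 to 7223 in controls. Of 6 tested, 1 was called lower with estradiol, 3 with tamoxifen and 3 with both agents. Adipocyte markers, measured for 6 of 10, summed to 1176 to 1378 with estradiol, 1703 to 2395 with tamoxifen and 1372 to 2048 with both agents, against 1387 to 1992 in controls, so the estradiol arm alone lay below control. Of 5 tested, 1 was called lower with estradiol and 1 higher with tamoxifen. Macrophage markers, measured for 10 of 12, overlapped with control in every arm, and 0 of 10 tested were called.

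Smooth muscle markers, measured for 9 of 12, set 2 arrays apart: they summed to 6925 in estradiol animal 4 and to 25361 in tamoxifen animal 1, against 41093 to 58198 on the other 14 arrays. No measured marker was at 0, although the epithelial keratin KRT7 was dim, with a median signal of 5.62. The log2 ratio of 3′ to 5′ actin signal, a sign of RNA quality, was 0.41 to 0.83 in the estradiol arm, 0.47 to 0.57 in the tamoxifen arm and 0.48 to 0.64 in the combination arm, against 0.76 to 1.02 in controls. The part of any of these differences in the receptor values was not tested, and in whole tissue fewer cells of a type and less RNA per cell cannot be told apart.

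PRLR, the receptor for prolactin, was highest in the control animals. By the brightest of its probe sets, MmugDNA.12451.1.S1_at, the estradiol animals had signals of 187, 161, 427 and 81.4. The tamoxifen animals had 77.3, 333, 163 and 206 by the same probe set. The combination animals had 232, 241, 330.1 and 253, against 659.9, 541, 556 and 849 in the control animals. All 12 treated animals lay below all 4 controls, and the combination arm was the least spread of the treated arms. The means were 214 ± 149 with estradiol, 195 ± 107 with tamoxifen and 264 ± 44.8 with both agents, against 651 ± 142 in controls (SD, n = 4 each).

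**Figure D1:**
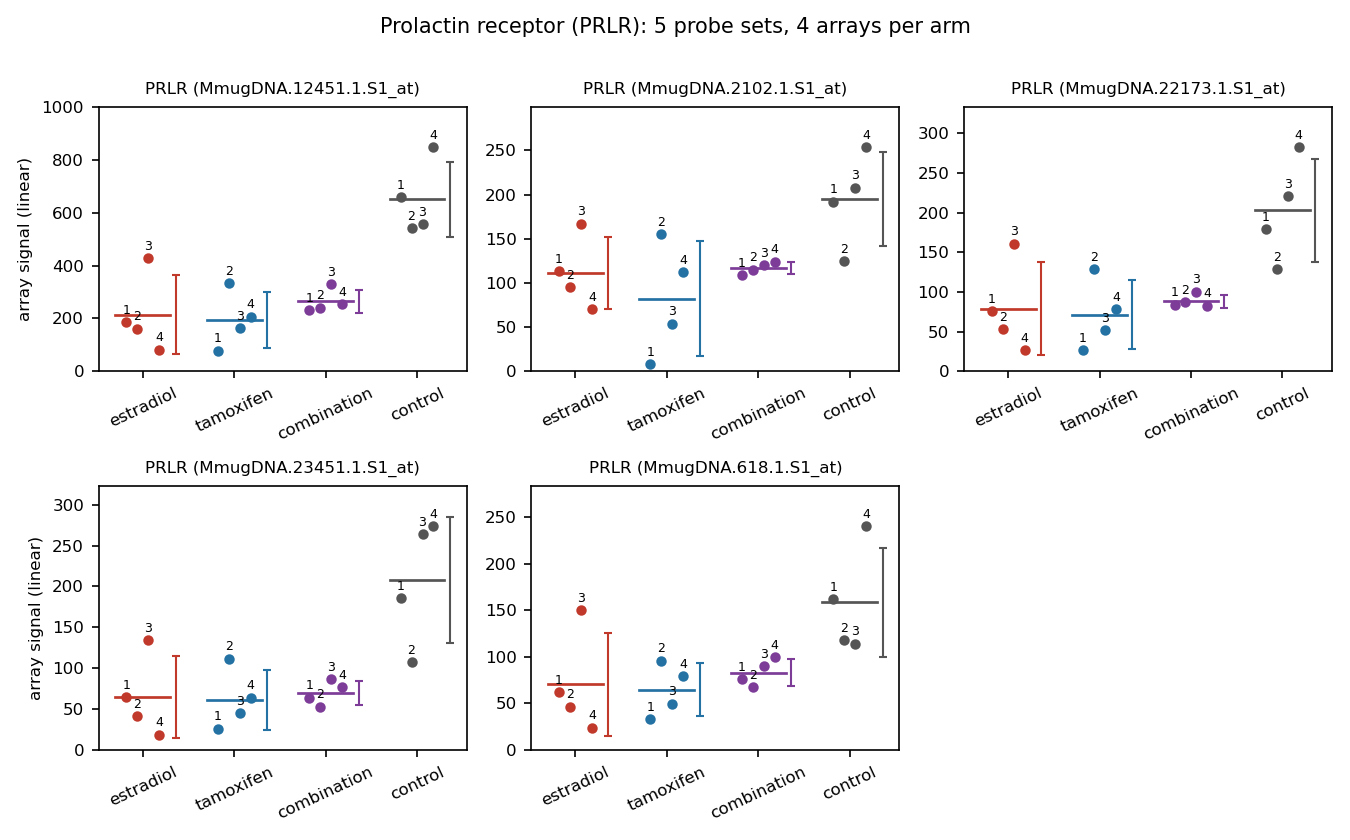
PRLR signal (linear scale, arbitrary units) on each array by probe set and arm; each dot is 1 animal with its number, the horizontal line is the mean and the bar at its right is the SD (n = 4). By MmugDNA.12451.1.S1_at the treated animals lie between 77.3 and 427 and the controls between 541 and 849.

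On the log2 scale MmugDNA.12451.1.S1_at was lower in each treated arm, with a change of −1.80 with estradiol, −1.87 with tamoxifen and −1.28 with both agents (SE 0.42 each), which put the control level 3.48, 3.65 and 2.42 times above those arms. These sizes are a description, since the gene was chosen on part of them and the 3 contrasts share the control arrays. The other 4 PRLR probe sets were lower in the same 3 contrasts, by changes of −1.81 to −0.80 with estradiol, −1.76 to −1.27 with tamoxifen and −1.44 to −0.67 with both agents.

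The other probe sets showed how far the animals of an arm differed. By MmugDNA.2102.1.S1_at the signals were 114, 94.9, 167 and 70.0 in estradiol animals, 7.83, 156, 53.9 and 112 in tamoxifen animals, and 109, 115, 120.2 and 124 in combination animals, against 192, 125, 208 and 254 in controls. The combination animals were close together and below all controls, whereas the tamoxifen animals ran from 7.83 into the control range. By MmugDNA.22173.1.S1_at the signals were 75.8, 52.6, 161 and 26.5 with estradiol, 26.8, 129, 51.9 and 77.9 with tamoxifen, and 84.0, 86.7, 100.5 and 82.5 with both agents, against 179.5, 129, 221 and 283 in controls. Estradiol animal 4 and tamoxifen animal 1 were again the lowest of their arms, and estradiol animal 3 and tamoxifen animal 2 the highest. MmugDNA.23451.1.S1_at and MmugDNA.618.1.S1_at, with means of 64.9 ± 50.1 and 70.7 ± 55.3 in the estradiol arm, 61.7 ± 36.7 and 64.6 ± 28.4 in the tamoxifen arm and 70.2 ± 14.7 and 83.2 ± 14.2 in the combination arm, against 208 ± 77.5 and 159 ± 58.7 in controls (SD, n = 4 each), had the same lowest and highest animals in those 2 arms.

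The combination arm did not overlap with the control arm in 5 of 5 PRLR probe sets, where 23.5% of all probe sets tested had arms without overlap in that comparison. The estradiol arm did not overlap with control in 1 of 5, where the share over all probe sets was 24.3%, and the tamoxifen arm in 2 of 5, where it was 18.8%. All of these counts are descriptions. The order of the arms was the same in part for all 5 probe sets, with control highest and the combination arm next. For MmugDNA.12451.1.S1_at the gap between those arms was 1.28 on the log2 scale, wider than the larger of their SDs (0.30), while the gaps below the combination arm were within the spread of the animals.

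Estradiol animal 4 and tamoxifen animal 1, which stood apart in muscle markers, also held the lowest PRLR values of their arms. Without both arrays the changes of MmugDNA.12451.1.S1_at were −1.43 with estradiol and −1.50 with tamoxifen. MmugDNA.2102.1.S1_at depended on tamoxifen animal 1: its change with tamoxifen was −1.67 with that array and −0.91 without it. In the tamoxifen arm the PRLR order of the animals, 2, 4, 3 and 1 from high to low by MmugDNA.12451.1.S1_at, ran opposite to that of their summed epithelium markers, which were 6801, 7387, 9298 and 12853 in the same animals. No other arm had an exactly opposite order. From high to low PRLR the sums were 7358, 6808, 9756 and 11917 with estradiol and 9472, 9020, 9595 and 7528 with both agents. In controls they were 5162, 5340, 5586 and 5282. The part of tissue makeup in these PRLR values was not tested.

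The comparison of the combination with estradiol alone asks what tamoxifen did on top of estradiol, and it shares no array with the contrast by which PRLR was picked. No PRLR probe set passed the test there. The change of MmugDNA.12451.1.S1_at was 0.52 (SE 0.42, 95% interval −0.38 to 1.42, limma adjusted p = 0.596), and those of the other 4 were 0.13 to 0.48 with adjusted p of 0.635 to 0.941. The interval leaves room for a rise of more than 1 log2 unit and for a small fall. Over all 13 receptor probe sets 0 passed in this comparison, where 1.22% of all probe sets did, and 0 had an unadjusted p under 0.05.

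Against tamoxifen alone the combination values of PRLR were higher by 0.32 to 1.00 on the log2 scale over the 5 probe sets, and the tamoxifen values differed from those of estradiol by −0.86 to 0.06. For MmugDNA.12451.1.S1_at the 2 agents together were 2.39 log2 units above the sum of their separate changes (SE 0.60). Tamoxifen was followed by a change of 0.52 on top of estradiol and of −1.87 without it. The comparisons with the tamoxifen arm share its arrays with the contrast by which PRLR was picked. The 2.39 contains that contrast, the −1.87, itself. These values are descriptions, while the 0.52 shares no array with that contrast and did not pass its test.

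The 5 PRLR probe sets followed each other from animal to animal. Over the 16 arrays the 10 pairs had a Pearson r of 0.77 to 0.98 (median 0.95), and after the mean of each arm was removed 0.72 to 0.97 (median 0.91). The probe sets read the same RNA of the same animals, so this agreement says that they ranked the arrays alike, not that the arms differ.

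Among 10704 other genes, each by its brightest probe set, those whose log2 values followed MmugDNA.12451.1.S1_at most closely over the 16 arrays were PIM1 (r = 0.958), NNMT (0.953), CDK17 (0.953), XPNPEP2 (0.943) and LRRK2 (0.943). With arm means removed the r values were 0.917 for PIM1, 0.942 for NNMT, 0.920 for CDK17, 0.927 for XPNPEP2 and 0.890 for LRRK2. These values pool the arms, and the estradiol and tamoxifen animals were the most spread for PRLR. The likeness did not hold for every gene within the control arm. PIM1, XPNPEP2 and LRRK2 were highest in control 2, where PRLR was lowest, while NNMT was lowest there as well. PIM1, a serine/threonine kinase whose gene is a known target of STAT5 and STAT3, had signals of 404, 341, 657 and 250.0 with estradiol, 243, 603, 382 and 575 with tamoxifen and 422, 470.1, 563 and 591 with both agents, against 838, 948, 722 and 854 in controls. Its highest and lowest animals within the estradiol and tamoxifen arms were those of PRLR. These r values come from the largest of many genes on shared arrays and are descriptions.

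**Figure D2:**
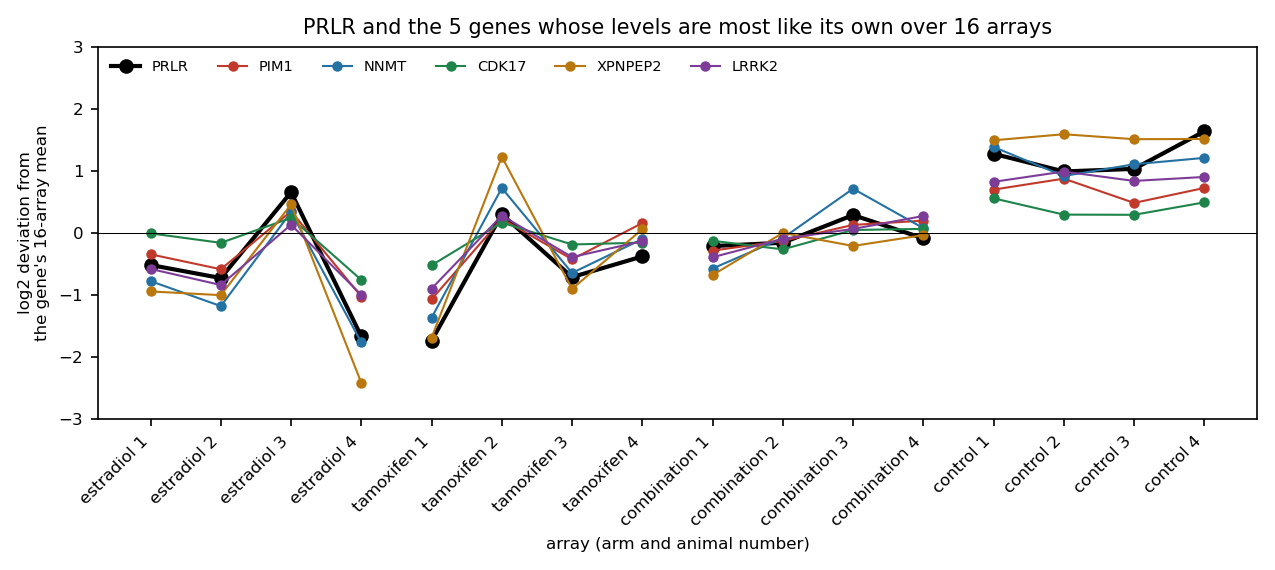
Log2 deviation from each gene's own mean over the 16 arrays for PRLR and the 5 genes most like it; the horizontal axis gives the animals by arm and each line is 1 gene. Every control point lies above 0, and estradiol animal 4 and tamoxifen animal 1 are low.

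LEPR, the receptor for the adipocyte hormone leptin, was lowest in the combination arm. By its brightest probe set, MmugDNA.14519.1.S1_s_at, the estradiol animals had signals of 182, 106, 158 and 187, and the tamoxifen animals 338, 177, 403 and 128. The combination animals had 168, 156, 102 and 82.9, against 345, 219.9, 226 and 326 in the controls. Every estradiol and combination animal lay below every control, while the tamoxifen animals spread over the whole range, with 1 and 3 high and 2 and 4 low.

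**Figure D3:**
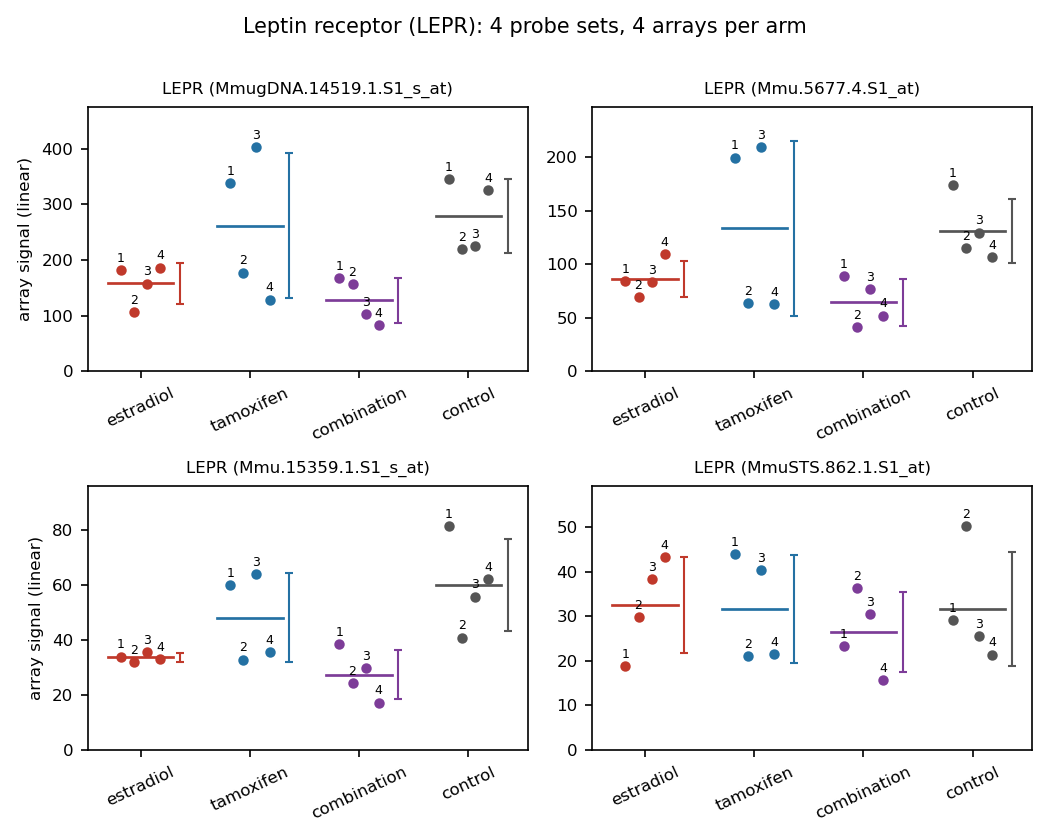
LEPR signal (linear scale, arbitrary units) on each array by probe set and arm, with the mean as a horizontal line and the SD as a bar at its right (n = 4). The combination animals lie below the controls in the 3 probe sets that were tested, and tamoxifen animals 1 and 3 stand above 2 and 4.

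In the combination arm LEPR fell by 1.13 on the log2 scale in MmugDNA.14519.1.S1_s_at (SE 0.33, limma adjusted p = 0.0307), which put the control level 2.19 times above. It fell by 1.01 in Mmu.15359.1.S1_s_at (SE 0.26, limma adjusted p = 0.0153), a ratio of 2.02. The third, Mmu.5677.4.S1_at, had a change of −1.01 with a wider error (SE 0.36, limma adjusted p = 0.0737) and did not pass, although its 4 combination animals also lay below the 4 controls. LEPR thus held both of the calls among the 8 tested probe sets of the genes other than PRLR in this comparison, and 7.79% of all probe sets tested were called lower. The call of MmugDNA.14519.1.S1_s_at was lost when control 1, control 4, combination 3 or combination 4 was left out, with an adjusted p of up to 0.0863 and changes of −1.28 to −0.95. That of Mmu.15359.1.S1_s_at stayed in all 8 such fits, with an adjusted p of up to 0.0495.

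With estradiol alone no LEPR probe set passed. Mmu.15359.1.S1_s_at, whose signals were 34.0, 32.0, 35.6 and 32.9 with estradiol, against 81.4, 40.9, 55.7 and 62.1 in controls, had a change of −0.72 (SE 0.26, limma adjusted p = 0.0506) at the edge of the threshold. Without control 2 its adjusted p was 0.0264, and over the 8 fits that left out 1 array it reached 0.146. MmugDNA.14519.1.S1_s_at had a change of −0.81 (SE 0.33, limma adjusted p = 0.0863) and Mmu.5677.4.S1_at one of −0.57 (SE 0.36, limma adjusted p = 0.276). The arms did not overlap in the first 2 of these. Of the 8 tested probe sets 0 passed, where 25.5% of all probe sets did, and 2 had an unadjusted p under 0.05.

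With tamoxifen alone the LEPR changes were −0.31 in Mmu.15359.1.S1_s_at, −0.17 in Mmu.5677.4.S1_at and −0.21 in MmugDNA.14519.1.S1_s_at, given as a description. Leaving out 1 array turned the sign of 2 of them: the change was 0.099 without tamoxifen 2 and 0.11 without tamoxifen 4 in Mmu.5677.4.S1_at, and 0.081 without tamoxifen 4 in MmugDNA.14519.1.S1_s_at. The 2 high animals were the same in every LEPR probe set: by Mmu.5677.4.S1_at the tamoxifen animals had 199.7, 63.5, 209.7 and 62.5, against 174, 115, 129.6 and 107 in controls. By Mmu.15359.1.S1_s_at the tamoxifen animals had 59.8, 32.8, 64.0 and 35.5. Animals 1 and 3, high for LEPR, were the lower 2 of the arm for PRLR by MmugDNA.12451.1.S1_at and the higher 2 for the summed epithelium markers.

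The direct comparisons between treated arms called no LEPR probe set. The combination minus estradiol gave −0.30 in Mmu.15359.1.S1_s_at (limma adjusted p = 0.625), −0.44 in Mmu.5677.4.S1_at (0.612) and −0.33 in MmugDNA.14519.1.S1_s_at (0.692). The combination minus tamoxifen gave −0.70 (95% interval −1.25 to −0.16) in Mmu.15359.1.S1_s_at, −0.93 (−1.63 to −0.22) in MmugDNA.14519.1.S1_s_at and −0.84 (−1.61 to −0.06) in Mmu.5677.4.S1_at, each with an adjusted p of 1.00. All 3 had an unadjusted p under 0.05, but 0.00% of all probe sets passed in this comparison. Tamoxifen minus estradiol gave 0.40 to 0.60 with adjusted p of 0.474 to 0.694. The arms stood in the order control, tamoxifen, estradiol and combination in all 3 probe sets, and no neighbours in that order were apart by more than their spread.

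The dim LEPR probe set MmuSTS.862.1.S1_at, which did not pass the filter, had signals of 18.8, 29.8, 38.4 and 43.2 with estradiol, 43.9, 21.0, 40.4 and 21.5 with tamoxifen and 23.3, 36.3, 30.5 and 15.7 with both agents, against 29.1, 50.3, 25.6 and 21.4 in controls. It did not have the control animals on top. Over the 16 arrays the 6 pairs of LEPR probe sets had an r of 0.28 to 0.90 (median 0.65), less alike than those of PRLR. The genes closest to LEPR by MmugDNA.14519.1.S1_s_at were BANP (r = 0.798), GTF3C3 (0.797) and PRPF39 (0.789).

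GHR, the receptor for growth hormone and the nearest relative of PRLR, had no call in any comparison. By Mmu.15056.1.S2_at the signals were 125, 85.8, 158 and 59.4 with estradiol, 64.6, 95.9, 86.6 and 93.3 with tamoxifen and 81.5, 56.6, 83.9 and 86.1 with both agents, against 115, 59.9, 107 and 115 in controls. All arms overlapped, and in the estradiol arm animals 3 and 4 were the extremes, as for PRLR. The change was 0.06 with estradiol (95% interval −0.52 to 0.65, limma adjusted p = 0.897) and −0.32 with both agents (−0.90 to 0.26, limma adjusted p = 0.465). With tamoxifen it was −0.18, given as a description.

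LIFR, the chain that binds leukaemia inhibitory factor, likewise had no call. By MmuSTS.1440.1.S1_at the estradiol animals had signals of 59.6, 79.5, 112 and 64.1, the tamoxifen animals 88.8, 84.6, 111 and 85.5 and the combination animals 65.0, 77.4, 91.9 and 84.1, against 89.6, 72.8, 137 and 129.8 in controls. Every treated arm overlapped with control. The change was −0.42 with estradiol (95% interval −0.89 to 0.05, limma adjusted p = 0.182), −0.38 with both agents (−0.85 to 0.10, limma adjusted p = 0.270) and −0.17 with tamoxifen as a description.

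IL6ST encodes gp130, the chain shared by LIFR and IL6R and by several further receptors. By Mmu.10994.1.S1_at the signals were 226, 228, 169.7 and 146 with estradiol, 249, 174, 178 and 177 with tamoxifen and 166, 185, 193 and 144 with both agents, against 103, 3.05, 155 and 191 in controls. Control 2 was at 3.05, under the 10th percentile of all signals (4.80), and the other 3 controls overlapped with the treated animals. The changes of 1.43 with estradiol (95% interval −0.04 to 2.90, limma adjusted p = 0.143) and 1.29 with both agents (−0.18 to 2.76, limma adjusted p = 0.223) did not pass, and that with tamoxifen was 1.45 as a description. Without control 2 they were 0.37 (adjusted p = 0.238) with estradiol, 0.23 (adjusted p = 0.522) with both agents and 0.39 with tamoxifen, so 1 array set most of the size.

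IL6R, the chain that binds interleukin-6, was read by 2 probe sets that did not follow each other (r = 0.088 over 16 arrays). By MmugDNA.42225.1.S1_at the signals were 351, 391, 482 and 428 with estradiol, 573, 425, 407 and 354 with tamoxifen and 365, 529, 490.1 and 599.7 with both agents, against 486, 614, 386 and 387 in controls. Its changes were −0.16 with estradiol (95% interval −0.56 to 0.24, limma adjusted p = 0.570) and 0.09 with both agents (limma adjusted p = 0.803), and −0.09 with tamoxifen as a description. All arms overlapped.

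By MmuSTS.682.1.S1_at, IL6R had signals of 134, 194, 185 and 200.0 with estradiol, 319, 229, 214 and 234 with tamoxifen and 181, 285, 189 and 234 with both agents, against 167, 115, 202 and 243 in controls. Each tamoxifen animal was above each estradiol animal, and 6.87% of all probe sets had arms without overlap in that comparison. The difference, tamoxifen minus estradiol, was 0.47 (SE 0.22, 95% interval 0.00 to 0.94, limma adjusted p = 0.383) and did not pass. Of the 8 tested probe sets 0 passed between tamoxifen and estradiol, where 0.569% of all probe sets did, and this was the 1 with an unadjusted p under 0.05. Against control the change was 0.01 with estradiol (limma adjusted p = 0.985) and 0.31 with both agents (95% interval −0.15 to 0.78, limma adjusted p = 0.360). With tamoxifen it was 0.48 (95% interval 0.01 to 0.95), the largest of its 3 contrasts with control, given as a description, and the arms overlapped.

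**Figure D4:**
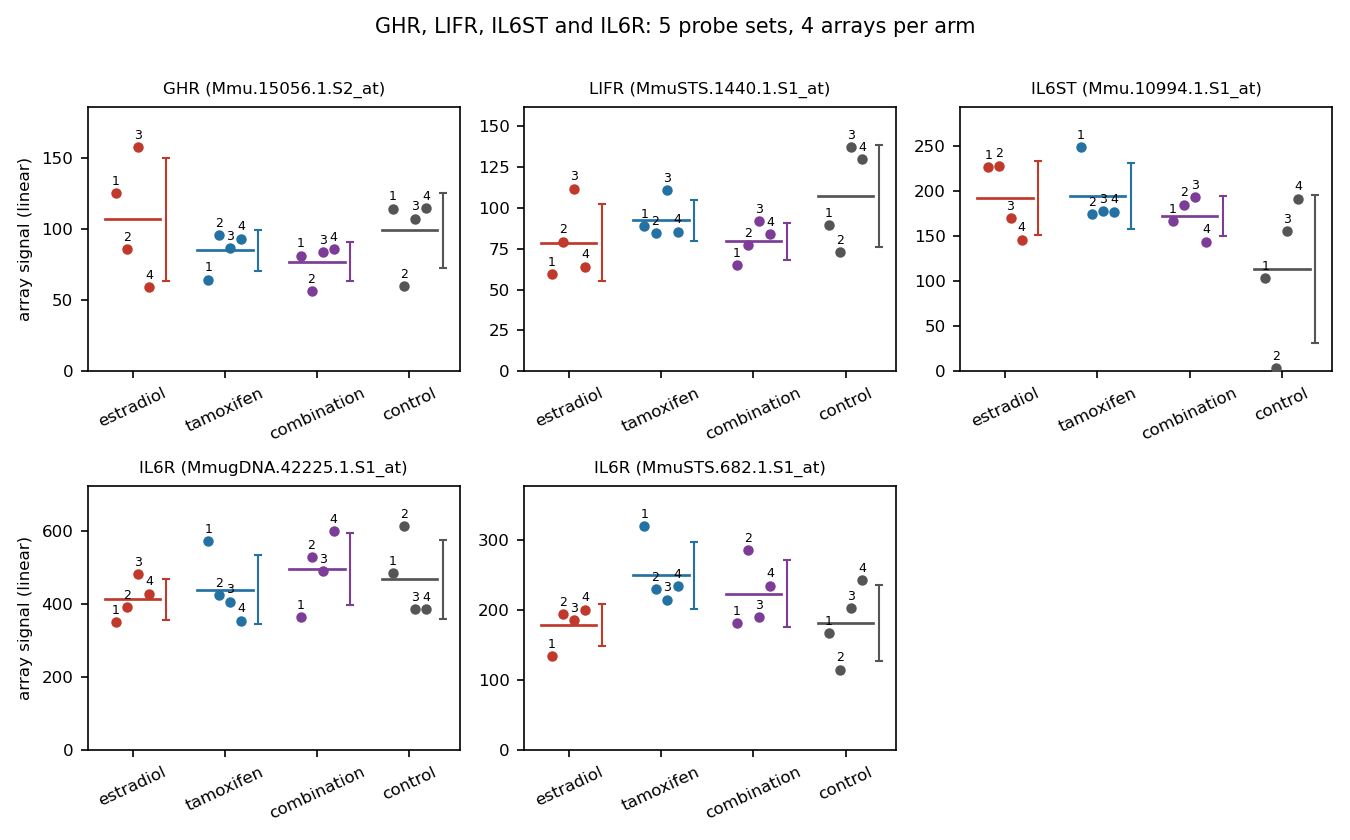
Signal (linear scale, arbitrary units) of GHR, LIFR, IL6ST and both IL6R probe sets on each array by arm, with the mean as a horizontal line and the SD as a bar at its right (n = 4). The arms overlap except tamoxifen above estradiol in MmuSTS.682.1.S1_at, and IL6ST in control 2 lies at 3.05.

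Set side by side, the 5 PRLR probe sets, the 3 tested LEPR probe sets and LIFR were below control in mean in each treated arm, IL6ST was above, and GHR and IL6R varied in sign. The median change over the 8 tested probe sets of the genes other than PRLR was −0.29 with estradiol and −0.35 with both agents, where the medians over all probe sets were −0.018 and −0.035. With tamoxifen the median over all 13 was −0.21, where that over all probe sets was −0.023. In the tamoxifen arm 3 of 13 were called lower, all of them of PRLR, where 6.17% of all probe sets were, a count that the choice of PRLR fixed in part. No test passed for the way the agents combined among the 8 probe sets of the other genes, with adjusted p of 0.325 to 0.986, where 9.54% of all probe sets passed, and 0 had an unadjusted p under 0.05.

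**Figure D5:**
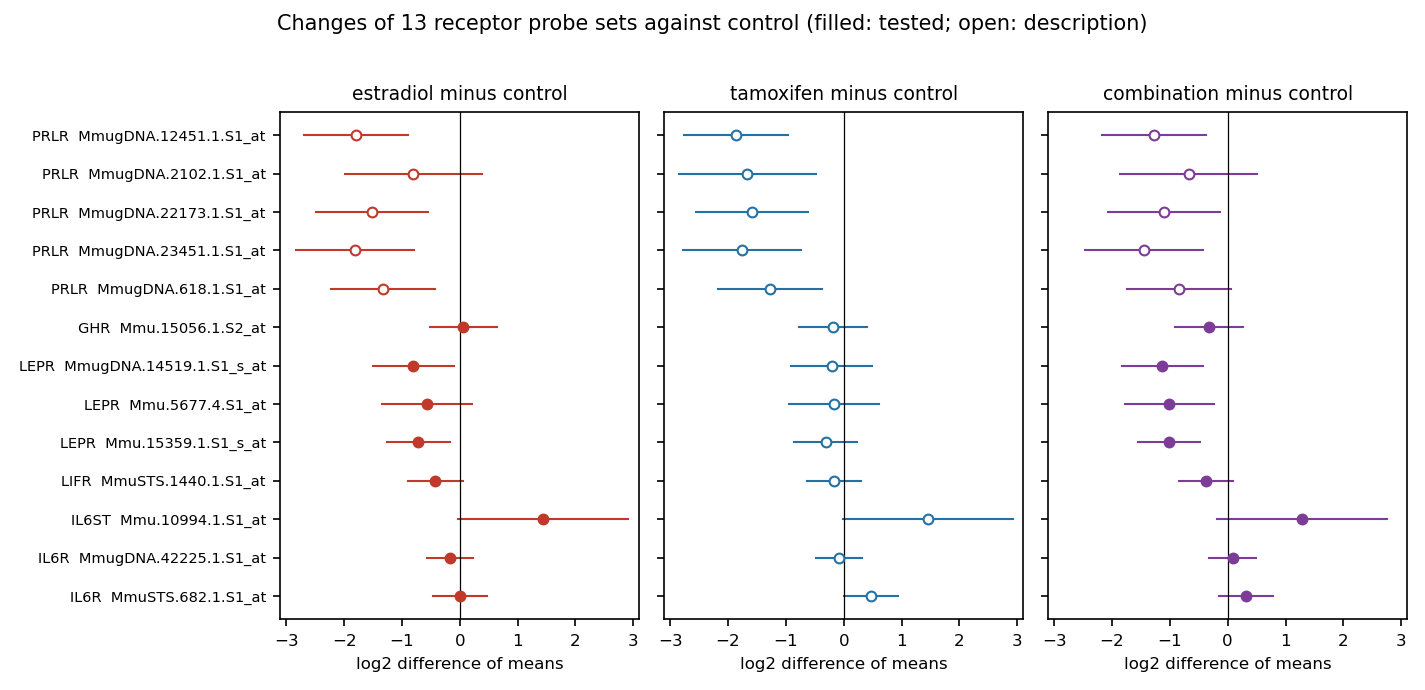
Log2 difference of means for the 13 receptor probe sets in the 3 comparisons with control; points are differences, bars their 95% intervals, filled points were tested and open ones are descriptions. The PRLR and LEPR points lie left of 0 in all 3 comparisons, and the IL6ST intervals are the widest.

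The genes closest to the remaining receptors had lower likeness than those of PRLR, except for IL6ST. They were ATL1 (r = 0.865), CEP170 (0.837) and TMEM43 (0.833) for GHR, USP27X (0.844), LHX1 (0.837) and DENND11 (0.833) for LIFR, and C2CD3 (0.834), KLHDC9 (0.807) and NFS1 (0.763) for IL6R by MmugDNA.42225.1.S1_at. Those of IL6ST were CDK2AP1 (r = 0.955), SFXN1 (0.942) and CCAR1 (0.934). These IL6ST values may rest in large part on 1 array, control 2. Its signal of 3.05 was far below that of the next lowest array, control 1, at 103. The r values were not computed without control 2.

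In the T2T-MFA8v1.1 annotation of the cynomolgus genome, PRLR, GHR, LIFR and IL6ST lie on 1 chromosome, and LEPR and IL6R on another. Between PRLR and LIFR lie 18 protein-coding genes, and between PRLR and GHR 38. LIFR is next to OSMR, the oncostatin M receptor, and IL6ST next to IL31RA, a further gp130-like chain. LEPR is next to LEPROT, whose transcript in human shares its first exons with that of LEPR. LEPROT had changes of −0.48 with estradiol (limma adjusted p = 0.061), −0.24 with tamoxifen and −0.29 with both agents (0.296), none past the test. OSMR had −0.27 with estradiol (limma adjusted p = 0.103), −0.07 with tamoxifen and 0.02 with both agents.

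The partners of these receptors were taken from 5 lists of 70 genes by role, of which 56 were annotated on the array and 45 were tested, each by its brightest probe set. Against control, 14 of 45 passed with estradiol (4 higher and 10 lower), 10 with tamoxifen (3 higher and 7 lower) and 10 with both agents (3 higher and 7 lower), where 25.5%, 13.3% and 15.8% of all probe sets passed. The median change of the 45 was −0.12 with estradiol, −0.14 with tamoxifen and −0.20 with both agents.

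Most ligands were near or below the limit of the filter. Of 9 annotated ligands 4 were tested, and prolactin itself (PRL) was left out as dim, with signals of 1.84 to 5.36 in the estradiol arm, 0.836 to 2.58 in the tamoxifen arm and 2.09 to 11.3 in the combination arm, against 1.58 to 4.35 in controls. CLCF1, a ligand of the ciliary neurotrophic factor receptor, fell with tamoxifen (change −0.95, limma adjusted p = 0.0025) and with both agents (−0.88, 0.0030). LEP, LIF and CTF1, the genes of leptin, leukaemia inhibitory factor and cardiotrophin-1, passed in no comparison.

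Of 9 other cytokine receptors, 2 fell with estradiol: IL13RA1, a chain of the interleukin-13 receptor (change −0.96, limma adjusted p = 0.0139, with −0.86 to −0.71 and 0 of 2 called in its other probe sets), and CSF2RB, the shared beta chain of the receptors for interleukin-3, interleukin-5 and GM-CSF (−0.68, 0.0442). With tamoxifen 0 of 9 passed. Over all probe sets 25.5% were called with estradiol, 13.3% with tamoxifen and 15.8% with both agents. With both agents IL11RA, which like IL6R works through gp130, fell in its brightest probe set (change −0.43, limma adjusted p = 0.0350), while its other probe set, at −0.26, did not pass. The call of CSF2RB was lost in 5 of 8 fits that left out 1 array, and that of IL11RA also in 5 of 8. EPOR, the erythropoietin receptor, did not pass in its brightest probe set. Its other probe set was called lower with estradiol (change −1.24) and with both agents (−1.09).

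Among 10 kinases, adaptors and STATs, STAT6, which acts behind the interleukin-4 receptor, fell in every treated arm: its change was −0.49 with estradiol (limma adjusted p = 0.0029), −0.45 with tamoxifen (0.0111) and −0.42 with both agents (0.0133). Its other 2 probe sets also had negative changes, and 2 were called with estradiol, 0 with tamoxifen and 1 with both agents. STAT5B, a main effector of PRLR and GHR, fell with estradiol (change −0.73, limma adjusted p = 0.0032), where its signals ran from 724 to 1184, against 1398 to 1788 in controls. The other 3 STAT5B probe sets had changes of −0.39 to −0.33 with estradiol and 0 of 3 passed. STAT5A and STAT3 passed in no comparison with control. SHC1, an adaptor, fell with estradiol (change −0.24, limma adjusted p = 0.0442), a call lost in 6 of 8 fits that left out 1 array.

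PTPN11, the phosphatase SHP2, rose with estradiol (change 0.51, limma adjusted p = 0.0083) and with both agents (0.54, 0.0101). JAK2, the kinase bound to PRLR, GHR and LEPR, gave opposite readings: its brightest probe set rose with estradiol (change 0.80, limma adjusted p = 0.0049) and with tamoxifen (0.73, 0.0156), while its other 2 probe sets had changes of −0.66 to −0.50 with estradiol, both called lower, and of −0.68 to −0.44 with tamoxifen. The brightest probe set's call with tamoxifen was lost without tamoxifen 4 (adjusted p 0.0506). The direction of JAK2 is therefore not settled by these probe sets.

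Of 9 inhibitors, PIAS1, a SUMO ligase, fell in every treated arm, with changes of −0.40 with estradiol (limma adjusted p = 0.0015), −0.37 with tamoxifen (0.0057) and −0.33 with both agents (0.0086). Its other 5 probe sets also had negative changes, and 2 were called with estradiol, 1 with tamoxifen and 3 with both agents. CISH, a feedback inhibitor that STAT5 induces, fell with tamoxifen (change −0.68, limma adjusted p = 0.0263) and with both agents (−0.61, 0.0395), but these calls were lost in 5 and 7 of 8 fits that left out 1 array. Its signals were 62.1 to 89.0 with tamoxifen and 61.9 to 83.8 with both agents, against 97.5 to 139 in controls. The other CISH probe set had −0.41 with tamoxifen, which did not pass, and −0.61 with both agents, which did. SOCS1 and SOCS2, also feedback inhibitors, passed in no comparison.

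Of 13 known targets of STAT3 and STAT5, IGF1, the growth factor that growth hormone induces in liver and oestrogen in uterus, rose in every treated arm, with changes of 1.26 with estradiol (limma adjusted p = 0.0002), 1.26 with tamoxifen (0.0008) and 1.06 with both agents (0.0014). Its signals were 6074 to 9217 with estradiol, 6094 to 9291 with tamoxifen and 5608 to 8538 with both agents, against 2521 to 3969 in controls, so no treated animal overlapped with the controls. CCND1, the cell cycle gene of cyclin D1, also rose in every treated arm, by changes of 0.80 with estradiol (limma adjusted p = 0.0247), 0.96 with tamoxifen (0.0174) and 1.34 with both agents (0.0023). Its calls were lost in 4 of 8 fits that left out 1 array with estradiol and in 2 of 8 with tamoxifen.

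Other targets went down. CEBPD, a transcription factor of the acute phase response, fell with estradiol (change −1.22, limma adjusted p = 0.0006), with tamoxifen (−0.85, 0.0124) and with both agents (−0.72, 0.0241), where the call was lost in 4 of 8 fits that left out 1 array. PIM1 fell with estradiol (change −1.10, limma adjusted p = 0.0105) and with tamoxifen (−0.97, 0.0334), the call with tamoxifen being lost in 5 of 8 fits that left out 1 array. JUNB, an AP-1 subunit, fell with estradiol (change −0.75, limma adjusted p = 0.0253) and with tamoxifen (−0.99, 0.0114), the call with estradiol being lost in 3 of 8 such fits. BCL6, a transcriptional repressor, fell with estradiol (change −0.51, limma adjusted p = 0.0045), and SERPINA3, an acute phase protease inhibitor, with both agents (−0.41, 0.0110), where its other 2 probe sets had −0.31 to −0.11 and 0 passed. Known targets thus moved in both directions.

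Between the treated arms 0 of 45 passed in any of the 3 comparisons. For the way the agents combined, 8 of 45 passed, 6 with a positive value and 2 with a negative one, against 9.54% of all probe sets. For PIM1 the combination was 1.35 log2 units above the sum of the separate changes (limma adjusted p = 0.0444), for CEBPD 1.35 above (0.0101) and for STAT5B 0.78 above (0.0361), and for IGF1 it was 1.46 below (interaction −1.46, 0.0041). Each of these named genes had a combination level no further from control than that of estradiol alone. The other genes that passed are not named here.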

How the data were processed

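Endometrial RNA of 16 macaques was read on Affymetrix rhesus arrays. Tri Reagent and RNeasy served for extraction and Enzo reagents for a single round of amplification, per the labels. Per the submitters' processing notes, GCOS, Affymetrix Expression Console and MAS5 were used, with no versions given. The deposited intensity values are linear MAS5 signals scaled per array: the mean after trimming 2% at each end was 250.0 on all arrays, medians were 58.7 to 70.3, and values ran from 0.0242 to 23401. The number of arrays limits the precision.

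Gene names came from the platform annotation, and 24969 probe sets had 1 symbol. After leaving out 99 control probe sets, values were analysed as log2(signal + 4.80), the pseudocount being the 10th percentile of all values, and the dimmest 40% by mean were removed (mean under 5.36). The remaining 31659 were fitted with limma 3.58.1 (R 4.3.3) over all 16 arrays (12 residual degrees of freedom, eBayes with a trend, 7 comparisons, Benjamini-Hochberg adjustment over all probe sets, threshold 0.05), checked on simulated data. The 2 agents' joint effect was tested as the combination minus estradiol minus tamoxifen plus control. Likeness was Pearson's r over 16 arrays against the brightest probe set of each gene.

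All receptor probe sets are named, and the 3 most alike genes are named for each receptor (5 for PRLR). Pathway genes are named where they passed against control or where their role is central. Of those that passed for the agents' joint effect only some are named. The members and lists were chosen with earlier results of these data known. Nothing in the labels ties equal replicate numbers to each other. The alternatives are another pseudocount, filter, normalization, variance model, array weights, the arms of a comparison alone, the replicate number as a block, and leaving out arrays. No sequences or genome coordinates of the receptors are given.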

Additional observations from a re-analysis of the deposited data

Results flagged for a closer look

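Over 56 groups of 4 arrays, 1 for each receptor probe set and arm, 3 had an array set apart from the other 3 by more than the 95% critical value of Dixon's test, which chance gives in about 1 group of 20. IL6ST in tamoxifen animal 1 had a signal of 249, above the 174 to 178 of the other tamoxifen animals (Dixon's ratio 0.94). GHR in combination animal 2 had a signal of 56.6, below the 81.5 to 86.1 of the other combination animals (0.87). GHR in control 2 had a signal of 59.9, below the 107 to 115 of the other controls (0.90). The cause was not tested.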

How the results depend on the processing

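Calls among the receptors rested on few probe sets. With both agents against control, 2 of 8 passed, but 1 with 60% of probe sets left out and 1 to 2 without each array in turn. The 60% filter also took dim receptor probe sets out of the test, so its counts are not out of the same number. With estradiol 0 of 8 passed, but 1 under array weights, a common median, quantile normalization, no variance trend, a pseudocount of 16, the arms of the comparison alone or the replicate block (0 to 1 without each array in turn). With tamoxifen 3 of 13 were called, all of them of PRLR, but 1 with 60% left out (1 to 5 without each array). PRLR was picked on this contrast, so these counts are a description and the choice fixed them in part. The probe set gained with estradiol was LEPR Mmu.15359.1.S1_s_at (adjusted p 0.0262 with the replicate block), except with the arms alone, where it was MmugDNA.14519.1.S1_s_at (0.0398). Mmu.5677.4.S1_at passed with both agents under the replicate block (0.0381) and with the arms alone (0.0252). Residual correlations gave no sign of pairing by replicate number. They were −0.27 to 0.095 (median 0.005) for same-numbered arrays and −0.50 to 0.51 (median −0.008) for differently numbered ones. Of 16 arrays 1 correlated best with its own number. These correlations run over all tested probe sets and cannot show a block that acts on few of them.

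Signs turned for values near 0. GHR with estradiol was −0.0067 under array weights. IL6R MmuSTS.682.1.S1_at with estradiol was −0.12 under array weights, −0.020 under quantile normalization and −0.051 without estradiol 4 and tamoxifen 1. PRLR for the combination minus estradiol was −0.057 in MmugDNA.2102.1.S1_at and −0.052 in MmugDNA.23451.1.S1_at without those arrays. Without each array in turn the ranges were −0.15 to 0.30 for GHR and −0.19 to 0.16 for IL6R MmuSTS.682.1.S1_at with estradiol, −0.013 to 0.22 for IL6R MmugDNA.42225.1.S1_at with both agents, and −0.057 to 0.34 for MmugDNA.2102.1.S1_at and −0.052 to 0.81 for MmugDNA.23451.1.S1_at in the combination minus estradiol. Among the descriptions with tamoxifen they were −0.45 to 0.11 for LEPR Mmu.5677.4.S1_at, −0.46 to 0.081 for LEPR MmugDNA.14519.1.S1_s_at and −0.22 to 0.053 for IL6R MmugDNA.42225.1.S1_at. The PRLR differences of tamoxifen from estradiol, near 0 in 4 probe sets, ran from −0.46 to 0.49 in those 4.

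Of the 45 pathway genes, 10 passed with both agents, but 6 under a common median (7 to 12 without each array); 14 with estradiol (10 to 15) and 10 with tamoxifen (7 to 10). The interaction had 8, but 4 under a common median, 5 without the trend, 4 with the mean of a gene's probe sets and 5 without the filter (3 to 10 without each array). Array weights gave 3 for the combination against estradiol and 2 for tamoxifen against estradiol, where the count was 0. Over all probe sets, the combination differed from estradiol in 385, but in 1687 under array weights, 221 without the filter, 217 under a common median, 93 with the arms alone and 47 to 1136 without each array. Tamoxifen differed from estradiol in 180, but in 718 under array weights, 0 with the arms alone and 0 to 618 without each array. Tamoxifen differed from control in 4214, but in 2714 with the arms alone and in 2714 to 4055 without each array (lowest without tamoxifen 1). The combination differed from control in 5015, but in 3120 to 4419 without each array (lowest without combination 1), and the interaction had 3019, but 1797 to 4275 (lowest without estradiol 1). The cause of these shifts was not tested. The interaction could not be fitted with 2 arms.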
